A study of Mus musculus with 4 samples.

Results

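The interleukin 1 and inflammasome genes are 10 genes of cytokines, their receptors and the proteins that release them: Il1a, Il1b, Il18, Il1rn, Il1r1, Il1r2, Nlrp3, Pycard, Casp1 and Casp4. They were chosen by name, and a gene was taken where the platform annotation pairs a probeset (the group of probes for one transcript) with its symbol alone. All 10 had exactly 1 such probeset, out of 22180 genes measured in this way. Pancreatic islets hold the hormone-secreting cells of the pancreas, and those of GPR41 transgenic (Tg) mice were set against those of WT littermates on 2 arrays per group. GPR41 is a receptor for short-chain fatty acids, encoded in the mouse by Ffar3, and the study asked how it affects insulin secretion and islet gene expression. All mice were C57BL/6 and 5 to 6 months old, and the islets of both groups were kept in RPMI medium before RNA was purified. Arrays of 1 group are titled biological replicates, but the labels leave unsaid if an array holds 1 mouse or a pool, and they give neither the promoter of the transgene nor the number of founder lines. If the arrays of a group share animals, the p-values measure only the spread between these samples, which may be technical.

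IL-1 alpha and IL-1 beta, the products of Il1a and Il1b, signal through the receptor IL1R1 and its partner IL1RAP. The antagonist encoded by Il1rn occupies the same receptor without signalling, and IL1R2 is a decoy that binds the cytokine without passing the signal on. IL-1 beta and IL-18 are made as inactive precursors, which caspase 1 cuts after an inflammasome has formed: a sensor such as NLRP3 joins the adaptor ASC, encoded by Pycard, and ASC recruits the caspase. Mouse caspase 4 responds to bacterial lipopolysaccharide in the cytosol and cleaves the pore protein gasdermin D. In islets, resident macrophages are a known source of IL-1 beta, and beta cells are known for a high level of Il1r1. Arrays read transcripts, so the cleaved cytokines and the active caspases were not measured here.

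Among the 10 genes, Il1b, Casp1 and Casp4 rose in Tg islets at an adjusted p under 0.05 over all genes (limma with Benjamini-Hochberg adjustment). The increases were 1.92-fold, 2.65-fold and 2.51-fold. No member fell at that threshold, which 0.225% of all genes passed downward. Il1a was 1.83-fold higher and Il1r1 1.64-fold lower in Tg by their means, both outside it. The antagonist Il1rn, the decoy receptor Il1r2, the sensor Nlrp3 and the adaptor Pycard had confidence intervals that included 0. The count of 3 of 10 stands beside 0.897% of all genes called in either direction and 0.672% called higher. The 10 genes were chosen with earlier results of these data known, so the excess of members over that share is a description. All 3 calls lay close to the threshold and were lost in the fit with the replicate number as a block.

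The sequences upstream of Il1a, Il1b, Casp1 and Casp4 are shown first because these had the 4 largest positive differences and form pairs of neighbouring genes, Il1a with Il1b and Casp1 with Casp4. Each is the 250 bases before a RefSeq transcript start in GRCm38.p6, 5′ to 3′ on the strand of the gene. Where the table held several starts for a gene, the one with the lowest coordinate is shown. Capitals mark TATAA, the core of the TATA box that positions transcription at some promoters, or GAGGAA, a core letter string of the myeloid factor PU.1, on either strand.
Il1a (chr2:129309973-129310222, minus strand): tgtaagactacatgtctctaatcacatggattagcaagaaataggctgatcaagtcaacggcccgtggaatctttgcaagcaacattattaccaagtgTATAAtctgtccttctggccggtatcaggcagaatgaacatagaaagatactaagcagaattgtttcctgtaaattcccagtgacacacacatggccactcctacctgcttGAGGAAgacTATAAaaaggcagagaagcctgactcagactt
Il1b (chr2:129371140-129371389, minus strand): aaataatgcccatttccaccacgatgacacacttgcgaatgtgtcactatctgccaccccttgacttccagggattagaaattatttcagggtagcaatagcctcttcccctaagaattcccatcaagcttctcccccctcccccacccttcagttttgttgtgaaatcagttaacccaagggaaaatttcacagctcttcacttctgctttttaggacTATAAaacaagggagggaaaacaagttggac
Casp1 (chr9:5298267-5298516, plus strand): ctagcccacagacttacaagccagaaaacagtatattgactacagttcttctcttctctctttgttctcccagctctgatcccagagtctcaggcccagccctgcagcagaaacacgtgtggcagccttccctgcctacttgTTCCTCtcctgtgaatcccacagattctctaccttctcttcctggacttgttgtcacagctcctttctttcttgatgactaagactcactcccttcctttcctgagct
Casp4 (chr9:5308599-5308848, plus strand): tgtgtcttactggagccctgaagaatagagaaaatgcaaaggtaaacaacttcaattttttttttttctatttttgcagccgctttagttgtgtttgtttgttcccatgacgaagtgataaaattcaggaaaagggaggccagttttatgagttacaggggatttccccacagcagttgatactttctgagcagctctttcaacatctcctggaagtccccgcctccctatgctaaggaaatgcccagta

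The Il1a and Il1b windows both held TATAA close to the start, beginning 32 bases before it in Il1a and 31 bases before it in Il1b. The Casp1 and Casp4 windows held no TATAA on either strand. Across all 32851 windows of this length in the table, 22.8% held TATAA at any position. GAGGAA began 41 bases before the start of Il1a and, on the opposite strand as TTCCTC, 108 bases before that of Casp1, against 23.3% of all windows. Further strings were searched on both strands: GGGA and TTCC with any 2 bases between them for NF-kB (1.21% of all windows), TTTC and TTTC with any 2 bases between them for interferon regulatory factors (2.98%), TTCNNNGAA for STAT factors (7.02%) and TTNNGCAA for C/EBP (9.56%). None of these exact strings was found in the 4 windows shown. Looser forms of them were not searched, such as GGGATTTCCC for NF-kB, which the Casp4 window holds. Over the 15 windows of the 10 genes, TTCNNNGAA occurred in that of Il1r2, and the C/EBP string in those of Pycard and, for 1 of its starts, Il1r1. A match of letters is not a binding site, and these windows leave out the 5′ untranslated region and all distant elements.

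Il1b, the gene of the main secreted agonist, was at 4.78 and 4.84 (log2) in WT and at 5.81 and 5.70 in Tg. The Tg arrays were about 1 log2 unit above both WT arrays, and the arrays of a group lay close together. The difference was 0.94 (SE 0.11, 95% confidence interval 0.68 to 1.21, adjusted p = 0.033). Both WT values were below the first quartile of their array, which lay between 4.92 and 4.97, so they are near the background of the method and the fold change may be compressed.

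Il1a, the gene of the second agonist, lay at 5.51 and 5.14 in WT and at 6.24 and 6.16 in Tg. The groups did not overlap, and the WT arrays differed more from each other than the Tg arrays did. Its difference of 0.87 (SE 0.15, 95% confidence interval 0.51 to 1.24) did not pass over all genes (adjusted p = 0.082). Il1a thus had nearly the difference of Il1b with a wider error.

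Il18, whose product is also matured by caspase 1, had the opposite sign. It was at 7.05 and 6.81 in WT and at 6.42 and 6.45 in Tg. Both Tg values were below both WT values, and the difference of -0.49 (SE 0.12) did not pass (adjusted p = 0.202). Il1rn, the antagonist gene, was at 6.74 and 7.63 in WT and at 7.08 and 7.36 in Tg, so that both Tg arrays fell between the WT arrays. With a WT range this wide, its difference of 0.03 had a 95% confidence interval of -0.69 to 0.76, so a 1.5-fold change in either direction lies inside it. The change of Il1b exceeded that of Il1rn by 0.91 log2 units within arrays. An exact permutation test of 2 arrays against 2 gave a two-sided p of 0.333, which is the smallest it can give, and the value was 1.32 without WT replicate 1 and 0.50 without WT replicate 2.

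**Figure D1:**
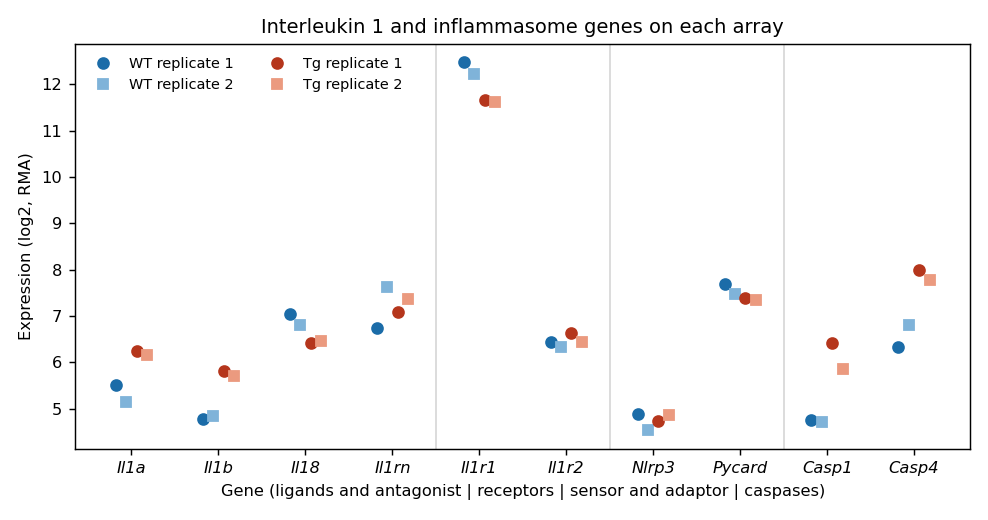
Log2 expression (RMA values, vertical axis) of the 10 genes on each of the 4 arrays, with WT in blue and Tg in red, circles for replicate 1 and squares for replicate 2. Both Tg points lie above both WT points for Il1a, Il1b, Casp1 and Casp4, and below them for Il18, Il1r1 and Pycard, while Il1rn, Il1r2 and Nlrp3 overlap; levels of different genes come from different probes and are not comparable.

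Il1r1, the signalling receptor, was bright on all arrays, at 12.47 and 12.22 in WT and at 11.65 and 11.61 in Tg. The Tg arrays were nearly equal to each other and lay below both WT arrays. Its difference of -0.71 (SE 0.13, 95% confidence interval -1.03 to -0.40) did not pass over all genes (adjusted p = 0.091), and its difference ranked 168 from the lowest among the 22180 genes. With a variance trend and a robust prior it passed, at an adjusted p of 0.019. With the replicate number as a block the adjusted p of Il1r1 was 0.226, and without variance moderation it was 0.551. Il1r2, the decoy receptor, was at 6.45 and 6.34 in WT and at 6.63 and 6.43 in Tg, with groups that overlapped (difference 0.14, SE 0.12, adjusted p = 0.735). Within arrays, the change of Il1r1 was lower than that of Il1r2 by 0.86 log2 units (difference -0.86, exact permutation p = 0.333, the smallest possible), and with single arrays left out it ranged from -0.94 to -0.775.

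Il1rap, which encodes the partner chain of the receptor and is not among the 10 genes, rose. Its brightest probeset was at 7.12 and 6.84 in WT and at 8.01 and 7.92 in Tg. The difference was 0.99 (SE 0.13, adjusted p = 0.045), a 1.99-fold increase. Its other 2 probesets, at log2 values between 3.59 and 4.31, lay below the lowest first quartile of the arrays (4.92), so near background. They differed by 0.19 and 0.21 and did not pass (adjusted p = 0.655 and 0.608), and a change there may be compressed. With the mean of the 3 probesets the adjusted p was 0.176, and with the replicate block on the brightest probeset it was 0.145. The 2 chains of the signalling receptor therefore had differences of opposite sign on their brightest probesets.

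Nlrp3, the sensor gene, was at 4.87 and 4.53 in WT and at 4.72 and 4.87 in Tg. All 4 values lay below the first quartile of their array, and the groups overlapped (difference 0.09, SE 0.15, adjusted p = 0.885). No change of Nlrp3 was detected, and its 95% confidence interval ran from -0.27 to 0.46. A rise as large as that of Il1b (0.94) lies outside it, although changes this near background may be compressed. Pycard, the adaptor gene, was at 7.68 and 7.46 in WT and at 7.40 and 7.35 in Tg. Its groups did not overlap, and the difference of -0.20 (SE 0.12) did not pass (adjusted p = 0.601).

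Casp1, the protease gene of the inflammasome, had the highest fitted increase of the 10 genes. It was at 4.75 and 4.71 in WT, below the first quartile of both arrays, and at 6.41 and 5.86 in Tg. The Tg arrays stood apart from each other by more than the WT arrays did, and both were more than 1 log2 unit above WT. The difference was 1.40 (SE 0.19, 95% confidence interval 0.93 to 1.88, adjusted p = 0.046). With WT values this near the background, its size is uncertain. Casp4 was at 6.32 and 6.79 in WT and at 8.0 and 7.77 in Tg. All 4 values were clear of the first quartile, so its change does not rest on values near background. Its difference was 1.33 (SE 0.18, 95% confidence interval 0.87 to 1.78, adjusted p = 0.048).

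**Figure D2:**
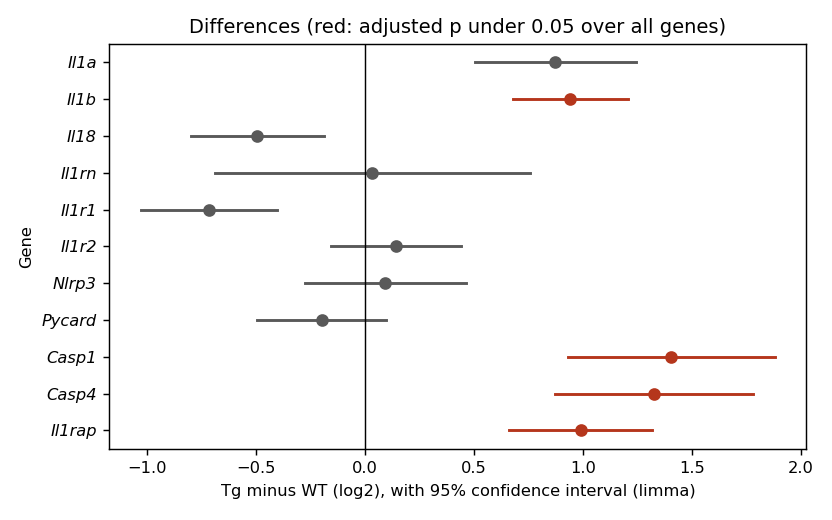
Differences between Tg and WT (log2, horizontal axis) with 95% confidence intervals from limma for the 10 genes and Il1rap, red where the adjusted p over all genes was under 0.05. Il1b, Casp1, Casp4 and Il1rap are red with intervals above 0, Il1r1 and Il18 lie below 0 with intervals that exclude it, and Il1rn has an interval of -0.69 to 0.76.

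Over the 10 genes, 7 were higher in Tg by their means (beside 45.7% of all genes) and 3 lower, with a median difference of 0.12 beside -0.02 for all genes. That median was 0.231 without WT replicate 1 and 0.282 without WT replicate 2. The groups did not overlap for 7 of the 10 genes, 4 higher and 3 lower, beside 42.3% of all genes, 18.6% higher and 23.7% lower. A descriptive count of genes at least 1.5-fold different with an unadjusted p under 0.05 took 5 of the 10, 4 higher and 1 lower. The same rule took 3.48% of all genes, 2.35% higher and 1.13% lower. The median hides that the members went apart, with 4 differences between 0.87 and 1.40 and 6 between -0.71 and 0.14.

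Gene order, taken from the RefSeq table for names and neighbours only, sets these values in their loci, and the neighbours were looked up after the members' values were seen. Casp12, the caspase gene next to Casp4, had a difference of 0.13 (adjusted p = 0.831), and Gria4, on the other side of Casp1, one of 0.13 (adjusted p = 0.711). Next to Il1a, Ckap2l differed by -0.02 and Slc20a1 by 0.11. On the side of Il1b, Sirpa differed by -0.05, and Pdyn, the dynorphin precursor gene and the third measured gene from Il1b, fell (-1.79, SE 0.23, adjusted p = 0.040). The measured receptor genes Il1r2, Il1r1, Il1rl2, Il18r1 and Il18rap form a cluster in that order, and the receptor gene Il1rl1 of the same family was not measured. Their differences were 0.14, -0.71, 0.36, 0.26 and 0.10, so Il1r1 was the one lower gene of the 5.

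Leaving out single arrays kept the sign of 8 of the 10 differences. Il1b stayed between 0.89 and 1.00, Casp1 between 1.13 and 1.68, Casp4 between 1.09 and 1.56, and Il1a between 0.69 and 1.06. Il1r1 stayed between -0.84 and -0.59 and Il18 between -0.61 and -0.37. Il1rn was 0.48 without WT replicate 2, -0.41 without WT replicate 1 and -0.11 without Tg replicate 2, and Nlrp3 was -0.08 without WT replicate 2. The calls did not hold in the same way: Il1b was lost with any of the 4 arrays left out, Casp1 kept its call only without Tg replicate 2 (adjusted p = 0.046) and Casp4 only without WT replicate 2 (adjusted p = 0.047). With the replicate number as a block, the adjusted p was 0.149 for Il1b, 0.149 for Casp1 and 0.210 for Casp4.

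**Figure D3:**
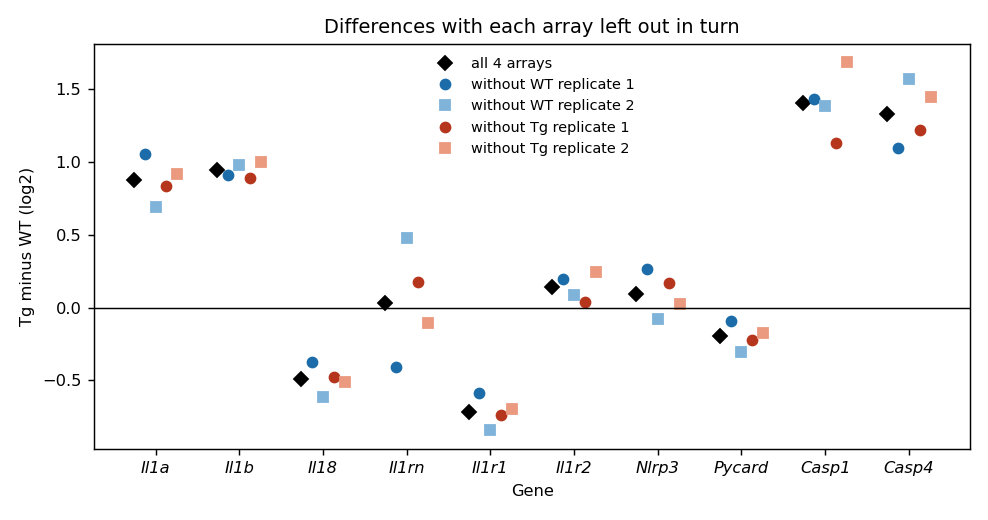
Differences between Tg and WT (log2, vertical axis) of the 10 genes with all 4 arrays (black diamonds) and with each array left out in turn (coloured points). Il1a, Il1b, Casp1 and Casp4 stay above 0.69 and Il1r1 and Il18 stay below -0.37, while Il1rn spans -0.41 to 0.48.

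The other measured genes of the IL-1 family held 1 call among 10, that of Il1rap, beside 0.897% of all genes called. Of these 10, 8 were higher and 2 lower, beside 45.7% of all genes higher, and the median was 0.18. Il33, an alarmin cytokine of the family, differed by 0.52 (adjusted p = 0.363), Il18bp, which neutralises IL-18, by 0.28 (adjusted p = 0.445) and the receptor gene Il1rl2 by 0.36 (adjusted p = 0.525). Of 13 measured genes that carry the signal from the receptor, 0 passed by limma. An unadjusted p under 0.05 was found for 0 of them, beside 11.8% of all genes. Their differences ran from -0.26 for the NF-kB subunit Rela to 0.25 for the kinase Irak2, with Ikbkb at -0.21 and Tab1 at -0.18, and the median was -0.05. The adaptor gene Myd88 was level at 9.38 and 9.47 in WT and 9.45 and 9.40 in Tg; it was named after its values were seen.

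Of 20 other inflammasome genes, 0 passed over all genes and 2 had an unadjusted p under 0.05, a share near the 11.8% of all genes. Of them, 12 were higher and 8 lower, beside 45.7% of all genes higher, and the median was 0.06. Panx1, a membrane channel that releases ATP, was at 7.55 and 7.24 in WT and at 8.17 and 8.27 in Tg. Both Tg arrays were above both WT arrays, and the difference of 0.83 (SE 0.14) had an adjusted p of 0.076. Naip2, a sensor of bacterial secretion proteins, differed by 0.59 (SE 0.13, adjusted p = 0.150), the DNA sensor Aim2 by 0.54 (adjusted p = 0.464) and Nek7, which binds NLRP3, by 0.21 (adjusted p = 0.489). The Naip genes are close relatives, and cross-hybridisation between their probes was not tested. The brighter probeset of Gsdmd, the gasdermin D gene, was at -0.17 (adjusted p = 0.658) and its dimmer one at 0.09; it was chosen after its values were seen.

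Genes that IL-1 is known to induce through NF-kB differed unevenly. Of 22 measured, 0 passed over all genes and 7 had an unadjusted p under 0.05 (beside 11.8% of all genes), all of them higher in Tg. Of these, 6 were at least 1.5-fold higher, beside 2.35% of all genes. The list had 15 higher and 7 lower genes, beside 45.7% of all genes higher. The median, 0.13, became 0.0106 without WT replicate 1, 0.243 without WT replicate 2, 0.0249 without Tg replicate 1 and 0.346 without Tg replicate 2. Ptgs2, the inducible cyclooxygenase, was at 7.72 and 8.81 in WT and at 9.56 and 9.34 in Tg (difference 1.19, SE 0.34, adjusted p = 0.262). Il6 was at 6.01 and 6.94 in WT and at 7.64 and 7.55 in Tg (difference 1.12, SE 0.29, adjusted p = 0.220). In both, WT replicate 2 lay between the other WT array and the Tg arrays. Without WT replicate 2 both passed, Il6 at 1.58 (adjusted p = 0.030) and Ptgs2 at 1.73 (adjusted p = 0.032). Without WT replicate 1 neither did, with Il6 at 0.65 (adjusted p = 0.159) and Ptgs2 at 0.64 (adjusted p = 0.208). The chemokine genes Cxcl5 (1.07) and Cxcl1 (0.75), the adhesion molecules Vcam1 (0.77) and Icam1 (0.64), and Tnf (0.56) were higher by their means, with adjusted p-values between 0.135 and 0.330. Without Tg replicate 1, the values were 0.65 for Cxcl5, 0.38 for Cxcl1, 0.38 for Vcam1 and 0.40 for Icam1, each lower by over 1.5 times, and 0.46 for Tnf. Nos2, Nfkbia and Sod2, well-known IL-1-responsive genes of islets named after their values were seen, were at 0.02, -0.05 and 0.01.

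The WT arrays differed from each other in several of these genes. Il1rn was higher by 0.88 on WT replicate 2 than on WT replicate 1, Ptgs2 by 1.08, Il6 by 0.93, the chemokine gene Ccl2 by 0.93 and the lipopolysaccharide co-receptor gene Cd14 by 1.33; Ccl2 and Cd14 were chosen after their values were seen. Of the 22 IL-1-induced genes, 15 were higher on WT replicate 2, and the median of its value minus that of replicate 1 was 0.19, beside -0.03 for all genes. Il1b (0.07) and Casp1 (-0.04) did not share this spread, while Casp4 did in part (0.47). All 7 acinar markers were also higher on WT replicate 2, with a median of 0.91, and the part of acinar tissue in the spread was not tested.

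**Figure D4:**
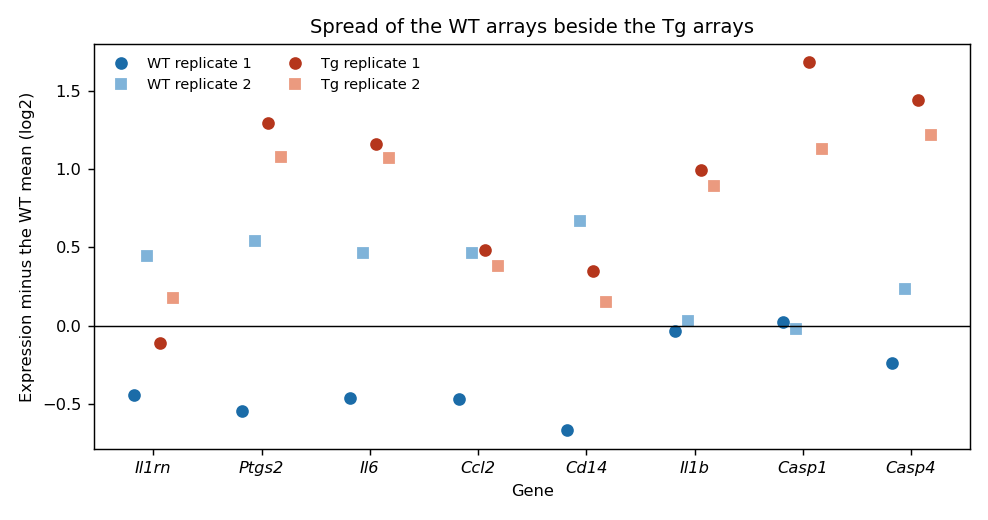
Log2 expression minus the mean of the WT arrays (vertical axis) for 8 genes on each array, with WT in blue and Tg in red. The WT arrays lie far apart for Il1rn, Ptgs2, Il6, Ccl2 and Cd14 and close together for Il1b and Casp1, whose Tg arrays are all at least 0.8 above both WT arrays.

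The genes whose pattern over the 4 arrays was most like that of Il1b were Stc1, Ephb6 and Srgn, by the root mean square distance between gene-centred log2 values. The distances were 0.022, 0.040 and 0.040, and the 3 genes differed by 0.97, 0.95 and 0.88 between Tg and WT. Stc1 encodes the secreted hormone stanniocalcin, Ephb6 an ephrin receptor and Srgn serglycin, a proteoglycan of secretory granules in blood cells. For Il1r1 they were Neurog3, the transcription factor of endocrine progenitors (distance 0.018, difference -0.70), Calb1, a calcium-binding protein (0.020, -0.73), and B3gnt9 (0.020, -0.74). With 4 arrays, many genes have such a pattern, and these likenesses are descriptions only.

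Markers of macrophages and lymphocytes were higher beside the members. All 20 macrophage and monocyte markers were higher in Tg by their means, with a median difference of 0.49, and 17 had groups that did not overlap, beside 45.7% of all genes higher by their means and 18.6% higher without overlap. Ctss, a lysosomal protease, passed over all genes (1.14, SE 0.14, adjusted p = 0.035, but 0.124 with the replicate block), while Cd68 (0.75, adjusted p = 0.053), Tyrobp (1.10, adjusted p = 0.066) and Fcgr1 (0.73, adjusted p = 0.079) did not. The mean of the list was 7.15 and 7.02 in WT and 7.70 and 7.72 in Tg. In bulk islets, more cells of a type and more RNA per cell cannot be told apart. Il1b (0.94) and Il1a (0.87) lay inside the range of these markers, 0.17 to 1.28, with 6 of the 20 markers above each. Casp1 (1.40) and Casp4 (1.33) lay above all 20, whose list mean differed by 0.62, although the size of the Casp1 difference is uncertain. Il18, Il1rn, Il1r1, Il1r2, Nlrp3 and Pycard lay below all 20. The part of macrophages in the changes was not tested.

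Lymphocyte markers were higher in Tg for 9 of 9 genes (beside 45.7% of all genes), with a median of 0.90. By limma 0 passed over all genes and 6 had an unadjusted p under 0.05, beside 11.8% of all genes. The median was 0.599 without Tg replicate 1. The list means were 6.16 and 6.00 on the WT arrays, 7.34 on Tg replicate 1 and 6.64 on Tg replicate 2. Cd79b (1.81), Ms4a1 (1.71), Cd3g (1.25) and Cd3e (0.90) were those with the smallest p, not the largest differences. Casp1 was also higher on Tg replicate 1 than on Tg replicate 2. This order was not particular to lymphocyte markers. Tg replicate 2 was the higher in 0 of 10 endothelial, 0 of 7 acinar and 11 of 20 macrophage markers. The part of lymphocytes or of these other cells in the value of Casp1 was not tested. Neutrophil markers went both ways, 4 higher and 6 lower. Their median of -0.12 was 0.0344 without WT replicate 2 and -0.039 without Tg replicate 1. They were between 4.85 and 4.96 in their list mean on all arrays. Cxcr2 was at -0.33, Mpo at -0.27, Elane at 0.29 and Camp at 0.26. By limma 0 of these markers passed and 1 had an unadjusted p under 0.05, beside 11.8% of all genes. The defining neutrophil gene S100a8, named after its values were seen, lay below the first quartile on all 4 arrays, and so did Camp.

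Endothelial markers (10 of 10 higher, median 0.33) and mesenchymal markers (10 of 10 higher, median 0.25) stood beside 45.7% of all genes higher. By limma they held no call, with 6 and 3 genes at an unadjusted p under 0.05 (beside 11.8% of all genes). Their part in the changes was not tested. Among them were Cdh5 (0.62), Plvap (0.64), Pecam1 (0.53) and Kdr (0.47), and Dcn (1.79, adjusted p = 0.054), Pdgfrb (0.38), Thy1 (0.44) and Pdgfra (0.46). The 13 measured endocrine markers had list means of 12.02 and 11.83 in WT and 11.83 and 11.86 in Tg and were bright on every array, with a median difference of -0.05 and Ucn3 (-0.60), Sst (-0.32), Gcg (-0.15) and Pcsk1 (0.15) as those with the smallest p. Acinar markers except Amy2b were bright as well, and the list means with Amy2b were 11.08 and 12.05 in WT and 11.85 and 11.43 in Tg. Their median of 0.11 ranged from -0.339 to 0.569 with single arrays left out. Cel (0.17), Cela3b (0.12), Prss2 (-0.34) and Amy2b (0.40) had the smallest p of the 7, and by limma 0 passed, also at an unadjusted p under 0.05. The Amy2b probeset lay below the first quartile on 3 arrays, so its difference rests on values near background. Bright probesets that name Amy2b together with other amylase genes were outside the comparison and differed by 0.03 to 0.05. Ffar3, the gene of the transgene, rose 18.7-fold in Tg, which checks the labels.

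**Figure D5:**
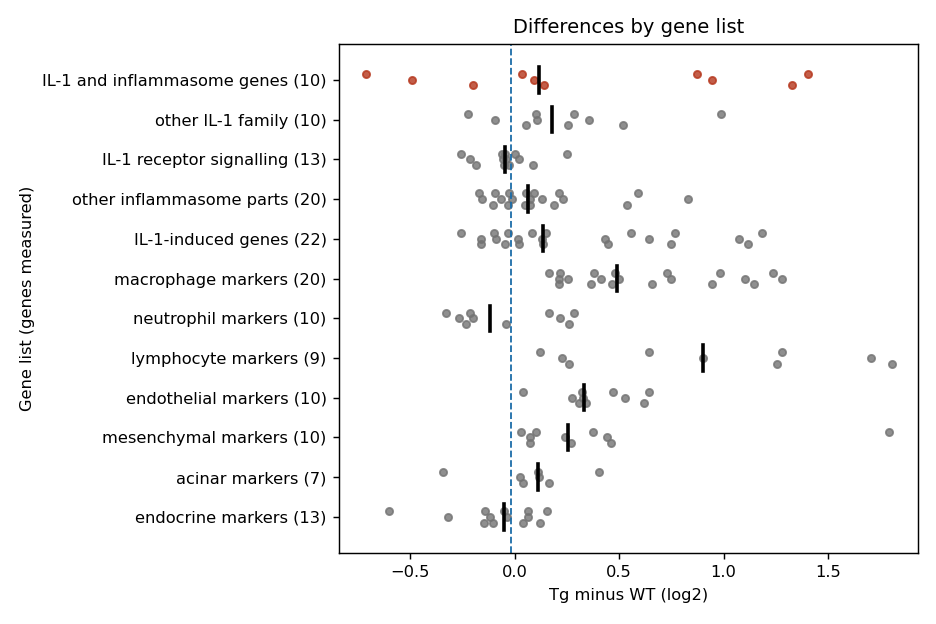
Difference between Tg and WT (log2, horizontal axis) of each measured gene by list, with the number of genes in brackets, black bars at list medians and a dashed line at the median of all genes (-0.02). The 10 interleukin 1 and inflammasome genes (red) split into 4 near 1 and 6 around or below 0, macrophage markers lie between 0.17 and 1.28, and receptor signalling genes lie within 0.26 of 0.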

How the data were processed

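RNA of 4 islet samples, 2 WT and 2 Tg by their titles, was read on Affymetrix Mouse Gene 2.0 ST arrays from 250 ng of total RNA each, per the labels. The deposited values run from 2.87 to 13.9 and were taken as log2 expression. Partek and RMA (a method that normalises arrays and summarises probes) are listed without versions in the submitters' processing notes, and the sources used here name no genome build. Of 27037 probesets, 23521 had 1 symbol in the platform annotation, and the brightest by mean over the 4 arrays stood for each of 22180 genes, with no filter on dim genes. Tg minus WT was estimated in R 4.3.3 by limma 3.58.1 (lmFit, eBayes; 2 residual and 3.76 prior degrees of freedom) and adjusted by Benjamini-Hochberg over all genes. A comparison of 2 arrays against 2 allows no exact p below 0.333.

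The members and the 11 other lists were chosen with earlier results of these data known; 154 of the 170 symbols of all lists were measured. Named were all members, Ffar3, up to 4 genes with the smallest p per list, IL-1 pathway genes at least 1.5-fold different with an unadjusted p under 0.05, and the 3 genes nearest in pattern to Il1b and to Il1r1, leaving out predicted or unnamed symbols. Others are said to be chosen later. The fit was tested on simulated data. Promoters of all 10 members came from RefSeq (GRCm38.p6) by symbol. Alternatives were the mean of probesets, single probesets, quantile normalisation, genes above the median level only, centring, a variance trend with a robust prior, no moderation, the replicate number as a block, and each array left out. The difference of replicate 1 from replicate 2 in WT and in Tg correlated at -0.063 across genes, so the numbers were not taken to pair the arrays.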

Additional observations from a re-analysis of the deposited data

How the results depend on the processing

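Against 3 members past the threshold, the mean of probesets, single probesets and centring gave 3 and the variance trend with a robust prior 4. Quantile normalisation gave 1 (Casp1 at an adjusted p of 0.062 and Casp4 at 0.055), and no moderation and the replicate block each gave 0. The filter at the median level, which left 5 members, gave 1, with 2 instead of 5 members at least 1.5-fold different, and medians of -0.198 for the members, 0.281 for the IL-1 family, 0.186 for other inflammasome genes, 0.702 for macrophage and 1.49 for lymphocyte markers. With each array left out, the members past the threshold numbered 0 to 1, those at least 1.5-fold different 5 to 6, and their median was 0.133 to 0.282. The 199 genes called in all became 347 with the trend and robust prior, 24 with the replicate block, 0 without moderation (limma's calls at an unadjusted p under 0.05 numbered 2627, and those without moderation 1928) and 38 to 135 with each array left out. The 772 genes at least 1.5-fold different became 416 without moderation and 846 to 1078 with each array left out. List medians with each array left out were 0.524 to 0.703 for macrophage markers, -0.15 to 0.0344 for neutrophil markers and -0.164 to 0.0428 for endocrine markers. Over all alternatives, members' calls changed in 19 of 115 values (18 lost, 1 gained) and 0 called values changed sign; for the losses the cause was not tested, except that leaving out an array leaves fewer samples. Signal near background limits Il1b, Casp1 and Nlrp3.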
